A study of Sus scrofa with 6 samples.

Results

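The 14-3-3 family of the pig was followed across 3 groups of oocytes put through maturation culture as the 7 genes SFN, YWHAB, YWHAE, YWHAG, YWHAH, YWHAQ and YWHAZ, which were taken by symbol from the 29861 genes of the deposited expression table. All 7 were present. The family was chosen on the FPKM values of these same 6 samples, which were known when it was picked, so differences of its members between groups are given as descriptions without a P-value. FPKM is a level counted in sequenced fragments and scaled for the length of the transcript and for the number of mapped fragments of the library. Oocytes of the pig (Sus scrofa) from abattoir ovaries were matured in vitro in their cumulus complexes. Control oocytes were kept at the normal culture temperature, heat-stressed oocytes were held at a raised temperature for an initial 24 h, and NMN-supplemented oocytes had the same heat treatment with nicotinamide mononucleotide, a precursor of NAD, in the medium. Each group had 2 samples of pooled oocytes, with no NMN-only group. The labels give the stage as GV (germinal vesicle, the prophase-arrested oocyte), whereas the methods of the study name metaphase II oocytes for the sequencing, and which of the stages the libraries hold was not settled here. No label says whether the 2 samples of a group were separate collections, so every test below measures only the spread between these samples, which may be technical.

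14-3-3 proteins are small acidic adaptors that dimerize and bind partner proteins at phosphorylated serine or threonine residues. Binding can hold a partner in the cytoplasm, block its active site or shield it from a phosphatase. In oocytes they are best known for holding the CDC25B phosphatase away from the CDK1-cyclin B kinase while the oocyte is arrested in prophase, under protein kinase A. The members are named by Greek letters, with SFN (stratifin) as sigma, YWHAB as beta, YWHAE as epsilon, YWHAG as gamma, YWHAH as eta, YWHAQ as theta and YWHAZ as zeta. Most members are made in nearly all tissues, whereas SFN is best known from epithelia and as a target of the p53 transcription factor that keeps CDK1-cyclin B in the cytoplasm after DNA damage.

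The 6 libraries summed to between 163929 and 290136 FPKM over all genes. The 13 mitochondrially encoded genes made up 66.4% and 61.7% of that sum in control, 62.4% and 71.6% after heat stress and 74.2% and 74.7% with NMN. Heat stress replicate 1 stood apart, with 109125 FPKM from nuclear genes against 57865 to 62744 in the other 5 libraries, where the gene LOC100513953 had 40366 FPKM and was listed at 0 in each of those 5. Sequencing depth is unknown, since the values are not whole multiples of a step and no counts were used. In pooled oocytes, fewer oocytes with a transcript and less of it in each oocyte cannot be told apart. Of 14 oocyte marker genes in the table, 11 had a mean of at least 1 FPKM, and their summed level was 3337 and 3547 in control, 3233 and 3240 after heat stress and 3029 and 2790 FPKM with NMN. The list of cumulus and granulosa cell markers had 17 of 18 genes in the table. Its summed level ran from 5.54 to 17.4 FPKM, with INHBA the only gene at a mean of 1 FPKM or more, while AMH, AMHR2 and INHA were listed at 0 in all 6 libraries. Because SFN is known from epithelia, epithelial markers were also read, and KRT5, KRT7, KRT8, KRT18, KRT19 and ELF3 were listed at 0 in every library. The adhesion genes CDH1 and EPCAM were present, and neither passed an unadjusted limma P of 0.05 in any comparison. Blood markers summed to at most 0.528 FPKM.

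The 7 genes lie on 6 chromosomes of the Sscrofa11.1 assembly, and no other annotated gene overlaps any of them. SFN (chr6:84188521-84189824, plus strand) differs from the rest in structure. It has a single exon, whereas YWHAB (chr17:47298020-47317826, plus strand) has 6, YWHAE (chr12:47601133-47645327, minus strand) 7, YWHAG (chr3:9994802-10023296, plus strand) 3, YWHAH (chr14:48544031-48556496, plus strand) 2, YWHAQ (chr3:126738795-126772784, plus strand) 6 and YWHAZ (chr4:35975513-36009909, plus strand) 8. The 3′ UTR of SFN was 519 bases long with 62.6% G and C, against 36.4% to 43.8% in the 3′ UTRs of the other 6. Among 3827 tested protein-coding genes with a usable 3′ UTR annotation, the median was 40.7% and 2.46% of genes were at or above SFN.

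Maturing oocytes lengthen or shorten the poly(A) tails of stored mRNAs through short signals near the 3′ end, so the ends of the members are shown here. The windows of 30 bases are from RefSeq, build Sscrofa11.1, 5′ to 3′ on the strand of the gene, and capitals mark the polyadenylation signal (AATAAA or ATTAAA) and the cytoplasmic polyadenylation element (TTTTAT or TTTTAAT), both searched on the transcript strand only in the last 100 bases.
SFN, chr6:84189795-84189824, plus strand: atgtttcctctcAATAAAgttcccctgtga
YWHAE, chr12:47601135-47601164, minus strand: aaacaaacctaaATTAAAaatgccaaacat
YWHAG, chr3:10023261-10023290, plus strand: gtacattgagcaAATAAActtacagatctg
YWHAH, chr14:48556460-48556489, plus strand: attcagtgggtaAATAAAtgctgctttggg
YWHAQ, chr3:126772755-126772784, plus strand: aaAATAAAattacaTTTTATaaaccattta
YWHAZ, chr4:36009861-36009890, plus strand: atattacattcaAATAAAagtgcaatggag
A polyadenylation signal was found in 6 of the 7 members and in 80.0% of 4153 tested protein-coding genes. YWHAB, whose annotated 3′ UTR has only 84 bases, showed none of these letters. YWHAQ alone carried the cytoplasmic element, which was present in the same window of 24.6% of genes. Over the whole annotated 3′ UTR the element occurred 0 times in SFN, YWHAB and YWHAH, 1 time in YWHAG and YWHAQ, 2 times in YWHAE and 5 times in YWHAZ. A match of these letters is a description of the sequence and not evidence that the site is used.

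The members resemble each other in coding sequence, so it was checked whether their reads could be confused. SFN shared between 60.4% and 70.5% of aligned coding bases with the other members, YWHAQ being nearest to it, and the closest pair of the family was YWHAG and YWHAH at 79.8%. The longest run of identical bases between any 2 transcripts was 30, again between YWHAG and YWHAH. Copies in the genome were sought for the coding sequences only, not for the untranslated parts. Those of SFN, YWHAG, YWHAH and YWHAQ had no other stretch of at least 100 bases with at least 90% identity. YWHAB had 2 such stretches, on chromosome 15 within LOC110256983 and LOC100516702, with mean levels of 0.0116 and 0.0273 FPKM. One stretch resembled YWHAE, on chromosome 3 within LOC100621247 (mean 0.253 FPKM), and one resembled YWHAZ, on chromosome 10 outside any annotated gene. As far as coding sequence goes, the levels of YWHAB, YWHAE and YWHAZ are thus less certain than those of the other 4.

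In control oocytes YWHAH and SFN were the most abundant members per length. YWHAH had 25.2 and 24.9 FPKM in control, 24.3 and 20.5 FPKM after heat stress and 29.2 and 23.6 FPKM with NMN. SFN had 15.6 and 22.3 FPKM in control, 9.90 and 12.2 FPKM after heat stress and 5.04 and 2.60 FPKM with NMN. The 3 groups of SFN did not overlap, and the highest library was 8.58 times the lowest, whereas this ratio was between 1.33 and 2.26 for the other 6 members. By its mean over all libraries SFN ranked 841st of the 4713 genes with a mean of at least 1 FPKM, the set used for all tests, and all 7 members belonged to it. YWHAB, with the lowest mean, ranked 4569th and was only just inside that limit.

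**Figure D1:**
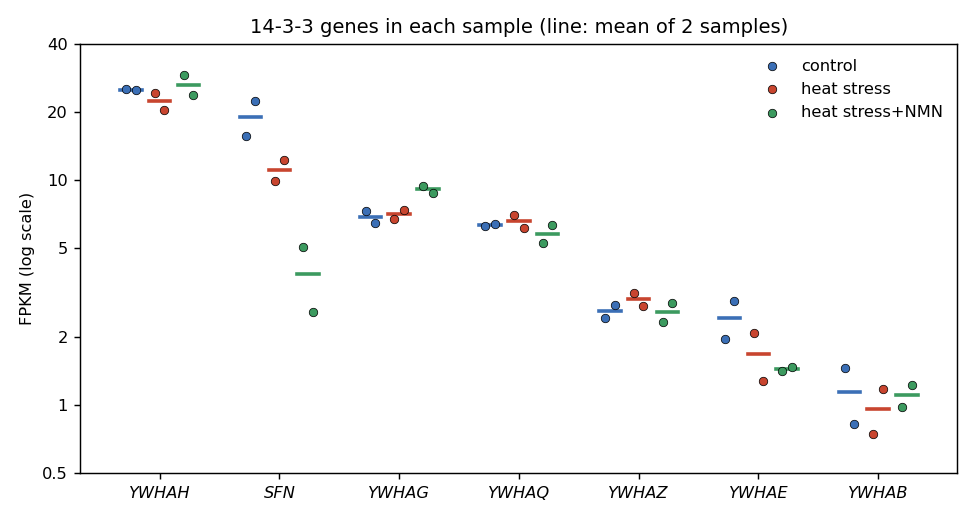
FPKM of the 7 members (logarithmic vertical axis) in the 2 control, 2 heat-stressed and 2 NMN-supplemented samples, 1 point per sample. The points of SFN step down from 15.6 and 22.3 in control to 5.04 and 2.60 in NMN-supplemented samples, while those of YWHAH stay between 20.5 and 29.2.

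The middle of the order was held by YWHAG and YWHAQ. YWHAG had 7.27 and 6.44 FPKM in control, 6.70 and 7.33 FPKM after heat stress and 9.35 and 8.77 FPKM with NMN, so that the NMN-supplemented samples lay above the other 4. YWHAQ had 6.20 and 6.33, 6.96 and 6.13, and 5.22 and 6.31 FPKM in the same order of groups, with overlap between all groups. YWHAZ had 2.43 and 2.78, 3.13 and 2.76, and 2.35 and 2.84 FPKM. YWHAE had 1.96 and 2.90, 2.10 and 1.28, and 1.41 and 1.48 FPKM, the control samples being above the NMN-supplemented ones. YWHAB had 1.45 and 0.823, 0.747 and 1.18, and 0.981 and 1.23 FPKM, with overlap between all groups.

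The order of the members changed in 1 respect between groups, the place of SFN. In control samples it ran YWHAH, SFN, YWHAG, YWHAQ, YWHAZ, YWHAE and YWHAB, and only the neighbours YWHAZ and YWHAE overlapped. The order by mean was the same in heat-stressed samples, where YWHAG and YWHAQ overlapped and all other neighbours were apart. In NMN-supplemented samples SFN stood below YWHAQ and overlapped with YWHAZ, and all other neighbours were apart. With 2 samples a group, being apart means only that the lower value of one gene exceeded the higher value of the next.

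Read as a share of the summed FPKM of the family within each library, which does not depend on how libraries are scaled to each other, SFN supplied 26.0% and 33.5% in control, 18.4% and 23.8% after heat stress and 9.42% and 5.55% with NMN. YWHAH supplied 41.9% and 37.5%, 45.2% and 39.8%, and 54.5% and 50.4%. The share of YWHAG was 12.1% and 9.68% in control, 12.4% and 14.3% after heat stress and 17.5% and 18.7% with NMN. Shares of one sum are tied to each other, so a lower share of SFN raises those of the rest. The ratio of SFN to YWHAH, free of that tie, was 0.619 and 0.895 in control, 0.407 and 0.599 after heat stress and 0.173 and 0.110 with NMN. The lower control sample and the higher heat-stressed sample were thus close, while the NMN-supplemented samples were far from both. The summed FPKM of the family was 60.2 and 66.5 in control, 53.8 and 51.4 after heat stress and 53.5 and 46.9 with NMN. Without SFN it was 44.6 and 44.2, 43.9 and 39.1, and 48.5 and 44.3, where control and NMN-supplemented samples overlapped and the higher heat-stressed sample lay less than 1 FPKM below both.

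**Figure D2:**
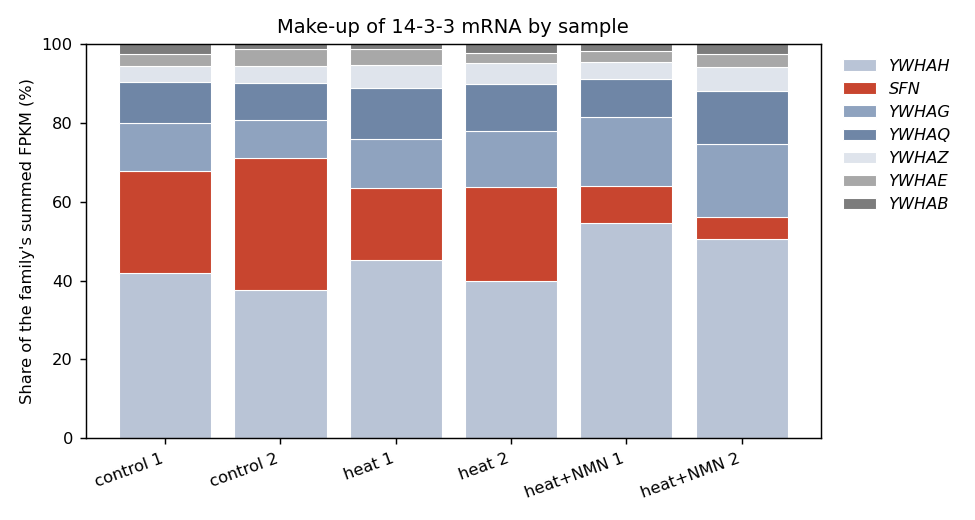
Share of the summed FPKM of the 7 members (vertical axis, percent) in each of the 6 libraries, 1 stacked bar per library from 0 to the full sum. The SFN segment covers 26.0% and 33.5% in control and 9.42% and 5.55% in NMN-supplemented samples, and the YWHAH segment is the largest in every library.

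Heat stress was set against control to ask what the raised temperature alone left in the oocyte transcriptome. Differences are on the log2(FPKM + 1) scale from 1 limma fit over all 4713 genes and 6 samples, which understates the change of genes at low levels, and a gene is called where its unadjusted P is under 0.05. None of the 7 members was called, whereas 22.8% of all genes tested were called, 598 of them higher and 476 lower in heat-stressed oocytes. That split became 34 and 528 after scaling without mitochondrial genes and 333 and 488 when LOC100513953 was also left out. After Benjamini-Hochberg adjustment over all genes 0 members and 0% of genes passed. An exact permutation test of 2 against 2 samples cannot go below 0.333 for any single gene. SFN had a mean of 19.0 ± 4.72 FPKM in control and 11.1 ± 1.66 FPKM in heat-stressed oocytes (SD, n = 2 each), a control level 1.71 times the heat-stressed one. Its log2 difference was -0.71 (SE 0.30), the 240th lowest of all genes. Although not called in the main fit, SFN was called under quantile normalization, at a minimum mean of 5 FPKM and with only the compared groups. It was also called after both scalings without mitochondrial genes, and in no setting after adjustment. SFN was not called with a pseudocount of 0.1 FPKM, at a minimum mean of 0.1 FPKM, after scaling to the same median, with a replicate block or without a trend. Nor was it called when either control sample or either heat-stressed sample was left out. Without control replicate 2, the higher of the control samples, the difference of SFN was -0.47. YWHAH (-0.16, SE 0.15) was the other member whose heat-stressed samples lay below both controls. Such separation held for 2 of 7 members and for 54.7% of all genes tested. The other log2 differences were -0.35 for YWHAE (SE 0.21), -0.11 for YWHAB (SE 0.20), 0.03 for YWHAG (SE 0.12), 0.05 for YWHAQ (SE 0.13) and 0.13 for YWHAZ (SE 0.13). The median of the 7 was -0.11, beside 0.05 for all genes tested, and 4 of the 7 were lower in heat-stressed oocytes.

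NMN-supplemented oocytes were set against heat-stressed ones to ask what the supplement changed under the same heat. SFN and YWHAG were called, in opposite directions. SFN fell from 11.1 ± 1.66 to 3.82 ± 1.72 FPKM (SD, n = 2 each), which is a heat-stressed level 2.90 times the NMN-supplemented one, with a log2 difference of -1.37 (SE 0.30). It was the 32nd lowest of the 4713 genes. YWHAG rose from 7.01 ± 0.446 to 9.06 ± 0.415 FPKM (SD, n = 2 each), with a log2 difference of 0.33 (SE 0.12). These 2 of 7 members stand beside 13.6% of all genes, of which 337 were called higher and 304 lower. That split was 182 and 87 after scaling without mitochondrial genes and 257 and 263 when LOC100513953 was also left out. After adjustment the counts were 0 members and 0% of genes. SFN and YWHAG were also the 2 of 7 members whose groups were apart, beside 53.5% of all genes. The remaining 5 members lay between -0.16 and 0.23, with YWHAH at 0.23 (SE 0.15), YWHAB at 0.11 (SE 0.20), YWHAE at -0.12 (SE 0.21), YWHAZ at -0.14 (SE 0.13) and YWHAQ at -0.16 (SE 0.13). The median was -0.12 over the family and 0.08 over all genes.

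Against control, NMN-supplemented oocytes held the lowest level of SFN. Control had 4.97 times the SFN level of NMN-supplemented oocytes, a log2 difference of -2.08 (SE 0.30) that was the 13th lowest of the 4713 genes. Here SFN and YWHAG (0.36, SE 0.12) were called, beside 41.3% of all genes, with 1208 called higher and 740 lower. That split turned to 279 and 510 after scaling without mitochondrial genes, but was 1051 and 706 when LOC100513953 was also left out. After adjustment SFN alone of the 7 remained called, beside 21.5% of genes. Without control replicate 2, or without either NMN-supplemented sample, the adjusted call of SFN was lost, and in the same fits the number of adjusted calls over all genes was 0 or 1. Groups were apart for 3 of 7 members, the third being YWHAE (-0.48, SE 0.21, not called), and for 69.9% of all genes. The remaining 4 were close to 0, namely YWHAH at 0.06 (SE 0.15), YWHAB at -0.01 (SE 0.20), YWHAZ at -0.01 (SE 0.13) and YWHAQ at -0.11 (SE 0.13). The median of the family was -0.01 and that of all genes 0.11. The 3 comparisons share samples pairwise, so their values are not independent of each other.

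**Figure D3:**
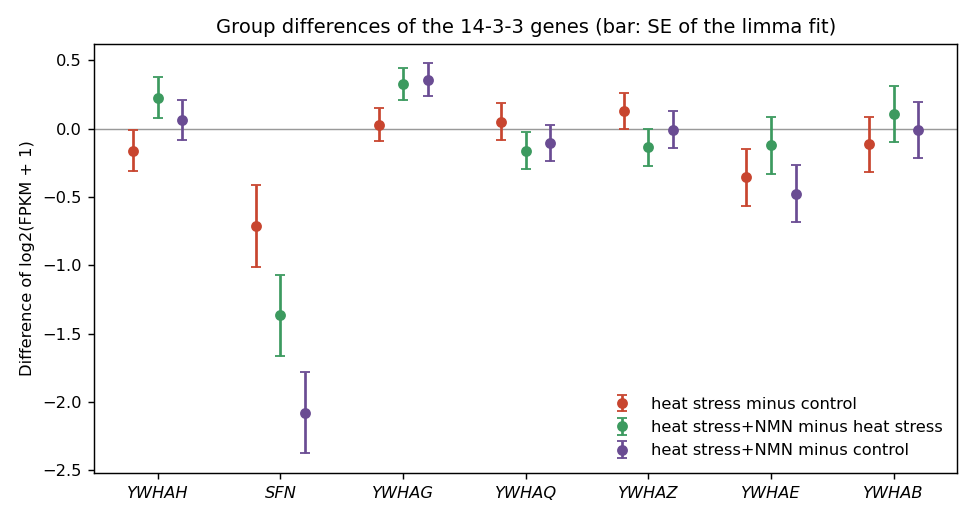
Log2 difference of the mean log2(FPKM + 1) for each of the 7 members (horizontal axis) in the 3 comparisons, with bars of 1 SE from the limma fit. SFN lies at -0.71, -1.37 and -2.08, and the other 6 members lie between -0.48 and 0.36.

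The difference of SFN kept its sign under all 16 alternative settings in each comparison. It ranged from -1.05 to -0.47 for heat stress minus control, from -1.74 to -0.99 for NMN-supplemented minus heat-stressed and from -2.45 to -1.70 for NMN-supplemented minus control. In the settings that leave 1 sample in a group, the spread comes from the other groups. Changing the minimum mean, the trend, the replicate block or the groups in the fit cannot change a difference. The same holds for leaving out a sample of the group not compared, so agreement under these settings was fixed in advance. YWHAG kept its sign against heat stress (0.26 to 0.66) and against control (0.28 to 0.43), but its calls, a description like the rest, were absent after quantile normalization and after both scalings without the mitochondrial genes, and also without NMN-supplemented replicate 1 or replicate 2 in both comparisons, without either heat-stressed sample against heat stress and without control replicate 2 against control.

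Among the other 4712 genes tested, those whose profile over the 6 libraries was nearest to that of SFN were ZAR1, CALR and MRPL36. Nearness was the root mean square difference of log2(FPKM + 1) after each gene was centred on its own mean, and it was 0.132 for ZAR1, 0.221 for CALR and 0.260 for MRPL36, against 0.903 for SFN itself around its mean. ZAR1, a maternal RNA-binding protein needed at the start of embryo development, had 17.3 and 23.8 FPKM in control, 11.8 and 13.8 FPKM after heat stress and 4.30 and 2.84 FPKM with NMN. CALR, the calcium-binding chaperone calreticulin of the endoplasmic reticulum, had 8.68 and 12.3, 5.73 and 9.48, and 3.65 and 1.98 FPKM. MRPL36, a protein of the mitochondrial ribosome, had 4.51 and 6.75, 2.66 and 2.32, and 1.02 and 0.684 FPKM. Control replicate 2 was the highest library and NMN-supplemented replicate 2 the lowest for all of SFN, ZAR1, CALR and MRPL36. Such likeness follows from choosing these genes by their nearness to SFN and is no separate result. The other family members were far from SFN by this measure, from 0.753 for YWHAE, which ranked 719th, to 1.05 for YWHAG, which ranked 3391st.

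**Figure D4:**
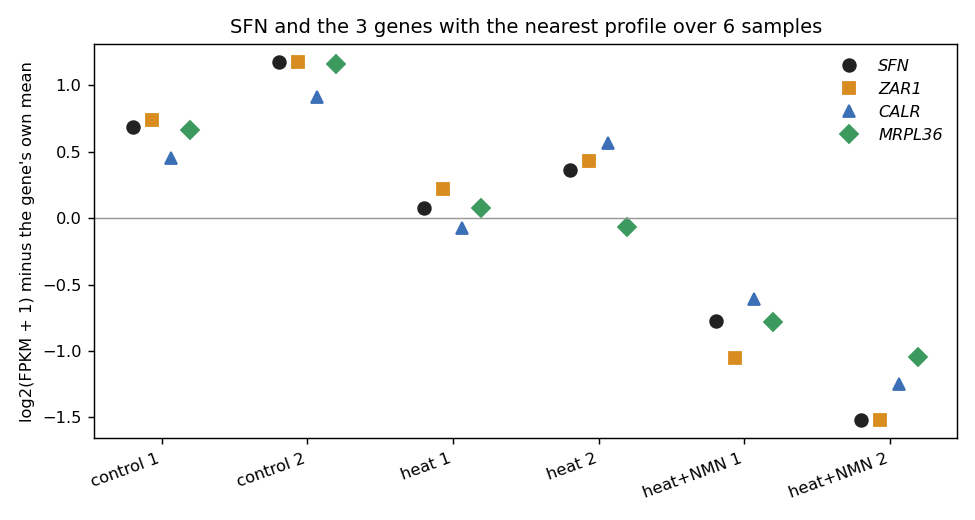
Log2(FPKM + 1) of SFN and of the 3 genes nearest to it, each minus its own mean over the 6 libraries (vertical axis, log2 units), by library. The points of all 4 genes lie above 0 in control and below 0 in NMN-supplemented samples, a likeness that follows from how the 3 genes were chosen.

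ZAR1 also belongs to the oocyte markers, so the whole list was read beside SFN. Of the 11 tested, ZAR1 included, 4 were called lower and 0 higher in heat-stressed than in control oocytes, 2 lower and 0 higher in NMN-supplemented than in heat-stressed oocytes, and 7 lower and 0 higher in NMN-supplemented than in control oocytes, beside 22.8%, 13.6% and 41.3% of all genes called in either direction. BMP15, the most abundant marker, had 1606 and 1646 FPKM in control, 1861 and 1940 FPKM after heat stress and 1820 and 1751 FPKM with NMN, above control in all 4 treated samples and not called. GDF9, an oocyte growth factor of the TGF-beta family, was called lower in the first and the last of these, with log2 differences of -0.58 (SE 0.15) and -0.94 (SE 0.15). The cumulus marker INHBA had 16.4 and 13.2 FPKM in control, 10.2 and 6.44 FPKM after heat stress and 4.35 and 10.2 FPKM with NMN, while all other genes of its list were at or below 0.773 FPKM in every library. It was called lower in NMN-supplemented than in control oocytes (-1.02, SE 0.39). The part of these lists in the values of SFN was not tested.

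Since SFN has 1 exon and a G and C rich 3′ UTR, genes sharing either feature were read beside it, a comparison chosen after its values were seen. The 226 tested protein-coding genes with 1 exon had median log2 differences of -0.0015, 0.030 and 0.022 for heat stress minus control, NMN-supplemented minus heat-stressed and NMN-supplemented minus control, beside 0.05, 0.09 and 0.13 for all 4153 protein-coding genes. Of the 226, 50.4%, 47.8% and 49.1% were lower in the first-named group, beside 44.6%, 36.9% and 38.9% of the 4153. SFN was the lowest of these 226 in the last comparison. The 201 genes with at least 60% G and C in the 3′ UTR had medians of -0.31, 0.03 and -0.32, and 81.1%, 46.3% and 67.2% of them were lower in the first-named group. Counting SFN itself, 32, 2 and 3 of the 201 had a difference as low as that of SFN. The part of base composition in the values of SFN was not tested.

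Partners and regulators of the family were read from 5 lists of 99 genes in all, of which 31 were tested. The lists were chosen with earlier results of these data known, and most genes named from them were picked by their P. Adjusted P-values given for these genes below therefore describe the fit and are no separate support. Adjusted calls in NMN-supplemented minus control also depended on single samples, as described above for SFN. Over these 31 genes, 9 (29.0%) were called in heat stress minus control, 4 (12.9%) in NMN-supplemented minus heat-stressed and 17 (54.8%) in NMN-supplemented minus control, beside 22.8%, 13.6% and 41.3% of all genes. After adjustment the counts were 0, 0 and 10, beside 0%, 0% and 21.5% of all genes. Libraries were also scaled to the same sum without mitochondrial genes. The unadjusted counts were then 1, 3 and 7 of 31, beside 11.9%, 5.71% and 16.7% of all genes. With LOC100513953 also left out of the sum, the counts were 6, 3 and 17 of 31, beside 821, 520 and 1757 of 4713 genes.

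The list of meiotic entry held the CDC25 phosphatases that 14-3-3 binds, the WEE kinases that oppose them, CDK1 and its cyclins, and protein kinase A, and 9 of its 16 genes were tested. In NMN-supplemented against control oocytes 6 were called higher and 1 lower, beside 2 and 0 in heat stress minus control and 1 and 0 in NMN-supplemented minus heat-stressed. The shares called over all genes in these comparisons were 41.3%, 22.8% and 13.6%. In the first of them, all genes split into 1208 called higher and 740 lower. After scaling without mitochondrial genes, with LOC100513953 still in the sum, the 7 calls against control dropped to 1, and the calls in the other comparisons to 0. WEE2, the oocyte kinase that inhibits CDK1, had 157 and 134 FPKM in control, 201 and 198 FPKM after heat stress and 251 and 249 FPKM with NMN. The groups did not overlap, and its log2 difference from control was 0.45 (SE 0.12, limma adjusted P = 0.140) in heat-stressed and 0.78 (SE 0.12, limma adjusted P = 0.0218) in NMN-supplemented oocytes. PRKAR1A, a regulatory subunit of protein kinase A, was higher in NMN-supplemented than in control oocytes by 0.51 (SE 0.11, limma adjusted P = 0.0367). CHEK1, a checkpoint kinase that phosphorylates CDC25 proteins, was higher by 0.62 (SE 0.14, limma adjusted P = 0.0381). The 1 gene called lower, outside the naming rule and named after its values were seen, was CDC25B, the phosphatase that 14-3-3 holds in arrested oocytes. CDC25B had 3.01 and 3.07 FPKM in control, 1.78 and 2.69 FPKM after heat stress and 0.755 and 1.73 FPKM with NMN, a log2 difference from control of -0.88 (SE 0.25, not called after adjustment) in the NMN-supplemented samples.

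Of the 22 survival and growth partners 2 were tested. YAP1, the growth-promoting coactivator that 14-3-3 keeps in the cytoplasm when phosphorylated, had means of 2.66 ± 0.0437 FPKM in control, 4.16 ± 0.238 FPKM after heat stress and 5.20 ± 0.0497 FPKM with NMN (SD, n = 2 each). It was higher than control by 0.49 (SE 0.11, limma adjusted P = 0.123) and 0.76 (SE 0.11, limma adjusted P = 0.0210) on the log2 scale.

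The kinases that phosphorylate 14-3-3 binding sites had 23 of 24 genes in the table and 6 tested, of which 2 were called lower in heat stress minus control and 1 higher in each of the other comparisons. Beside these stand 22.8% of all genes in heat stress minus control, 13.6% in NMN-supplemented minus heat-stressed and 41.3% in NMN-supplemented minus control. STK11, the kinase upstream of AMPK and the MARK kinases, was lower in heat-stressed than in control oocytes (-0.42, SE 0.11, limma adjusted P = 0.144). PIM3, a growth kinase, was lower there (-0.32, SE 0.13, limma adjusted P = 0.216) and higher in NMN-supplemented than in heat-stressed oocytes (0.56, SE 0.13, limma adjusted P = 0.231). PIM1 was higher in NMN-supplemented than in control oocytes (0.67, SE 0.15, limma adjusted P = 0.0379).

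Of 17 cytoskeletal partners 8 were tested, and 1 was called higher and 1 lower in heat stress minus control, 2 higher and 0 lower in NMN-supplemented minus heat-stressed and 3 higher and 2 lower in NMN-supplemented minus control. Over all genes the shares called were 22.8%, 13.6% and 41.3% in the same order. CFL1, the actin-severing protein cofilin, had means of 20.5 ± 2.24 FPKM in control, 10.6 ± 3.02 FPKM after heat stress and 11.7 ± 1.55 FPKM with NMN (SD, n = 2 each), and its log2 difference between heat stress and control was -0.91 (SE 0.21, limma adjusted P = 0.127). SSH2, a phosphatase that activates cofilin and is bound by 14-3-3, was higher in NMN-supplemented oocytes than in heat-stressed (0.36, SE 0.14, limma adjusted P = 0.360) and control oocytes (0.62, SE 0.14, limma adjusted P = 0.0379). KANK1, a regulator of actin at the cell cortex, was higher than in heat-stressed oocytes by 0.57 (SE 0.22, limma adjusted P = 0.359). PPP1R12A, the targeting subunit of myosin phosphatase, was higher than control by 0.43 (SE 0.12, limma adjusted P = 0.147) in heat-stressed and 0.55 (SE 0.12, limma adjusted P = 0.0328) in NMN-supplemented oocytes. RACGAP1, a part of the spindle midzone complex, was lower in NMN-supplemented than in control oocytes (-0.64, SE 0.16, limma adjusted P = 0.0461).

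SFN is itself a p53 target, and 20 of its regulators and fellow targets were listed, 6 of them tested. In heat stress minus control 2 were called higher and 0 lower, in NMN-supplemented minus heat-stressed none, and in NMN-supplemented minus control 2 higher and 0 lower. Among all genes 22.8%, 13.6% and 41.3% were called in these comparisons. PPM1D, a phosphatase induced by p53 that shuts its response down, had means of 3.07 ± 0.328 FPKM in control, 6.11 ± 0.0937 FPKM after heat stress and 6.50 ± 0.312 FPKM with NMN (SD, n = 2 each). Its log2 difference from control was 0.81 (SE 0.12, limma adjusted P = 0.111) and 0.89 (SE 0.12, limma adjusted P = 0.0210), the opposite sign to SFN. TP53INP1, a p53-induced stress protein, was higher by 0.28 (SE 0.11, limma adjusted P = 0.215) and 0.37 (SE 0.11, limma adjusted P = 0.0626). The rest of the tested genes were not called and fall outside the naming rule. CDKN1A, the CDK inhibitor p21, had 3.76 and 2.61 FPKM in control, 2.66 and 2.88 FPKM after heat stress and 2.97 and 3.25 FPKM with NMN, the control samples spanning those of both other groups. CCNG1 was lowest with NMN, at 13.6 and 14.2 FPKM, below all control and heat-stressed samples. In NMN-supplemented minus control, GADD45A lay at -0.07 (SE 0.32) and SESN1 at 0.19 (SE 0.12). The part of p53 in the values of SFN was not tested. TRIM25, the ubiquitin ligase that marks the SFN protein for degradation, was listed at 0 in all 6 libraries, as were COPS5 and FAS of the same list. With the depth unknown, a value of 0 does not show that a transcript was absent.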

How the data were processed

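RNA-seq values of 6 oocyte samples, 2 in each of 3 groups, were used. The authors deposited FPKM per gene for each sample. Per the study's methods, reads were trimmed with cutadapt and aligned with tophat2 to susScr11 (the same assembly as Sscrofa11.1), and the submitters' processing notes name Cufflinks 2.2.1, Cuffnorm and Cuffdiff. Scaling by mapped fragments makes each FPKM depend on the share taken by abundant transcripts. The authors' own fold changes, P-values and gene lists hold their comparisons and were not used.

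Genes with a mean of at least 1 FPKM over all samples (4713) were tested on log2(FPKM + 1) with limma 3.58.1 in R 4.3.3, with 1 fit over the 3 groups, moderated with a trend, and Benjamini-Hochberg adjustment over all genes tested. All tests were two-sided. Genes were called at an unadjusted P under 0.05, since the adjusted threshold passed 0 genes in 2 of the comparisons. The members and lists were chosen with earlier results of these data known. The text names all 7 members, the 3 genes nearest to SFN by profile and, from each of 5 lists and each comparison, up to 3 genes with the smallest P under 0.05 and groups that did not overlap. Some other listed genes and markers are named outside this rule. Positions and sequences came from RefSeq (Sscrofa11.1) through Biopython 1.88, near-copies of the coding sequences were sought with blastn 2.17.0, and tables and figures used Python 3.11.15, pandas 2.3.3 and matplotlib 3.10.9. The search for copies, the 3′ end letters and the gene classes by exon number and base composition were added after seeing the data. The script was tested on simulated data before use. Values of some listed genes are not reported here.

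The 16 alternatives changed the pseudocount (0.1 FPKM), the minimum mean (0.1 or 5 FPKM), the scaling of libraries (quantiles, median, sum without mitochondrial genes), the samples in the fit, the trend, a replicate block and each sample left out. Scaling without LOC100513953 was added after seeing the data.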

Additional observations from a re-analysis of the deposited data

How the results depend on the processing

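No difference of a family member that was called changed sign under the 16 alternatives, and over all members 300 of 327 alternative values had the sign of the reported one, while 313 moved by less than 1 SD between replicates. These counts include settings that cannot change a difference, so they overstate the agreement. Such settings change the minimum mean, the trend, the replicate block or the groups in the fit, or leave out a sample of the group not compared. The number of genes called over the whole table moved more, and except where the setting itself tests more or fewer genes or samples, the cause was not tested. For heat stress minus control, 1074 genes were called, with 1865 at a minimum mean of 0.1 FPKM, 468 at a minimum mean of 5 FPKM, 562 after scaling to the same sum without mitochondrial genes and 648 to 1015 with 1 sample left out. For NMN-supplemented minus heat-stressed the count of 641 became 1161, 266, 269 and 327 to 701 under the same settings, and for NMN-supplemented minus control the count of 1948 became 3236, 791, 789 and 1233 to 1941. After adjustment the counts of 0 in the first and second comparisons became 84 and 38 after scaling without mitochondrial genes, 1 and 1 when LOC100513953 was also left out of that sum, 1 and 1 without a trend, and 0 to 1 and 0 to 2 with 1 sample left out. The adjusted count of 1015 for NMN-supplemented minus control became 86 and 546 at minimum means of 0.1 and 5 FPKM, 281 and 558 after the scalings without mitochondrial genes, the latter also without LOC100513953, and 0 to 798 with 1 sample left out, namely 0 without control replicate 2, 1 without either NMN-supplemented sample and 373 without control replicate 1.

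Scaling without mitochondrial genes moved the median log2 difference of all genes to -0.22, 0.35 and 0.13 in the 3 comparisons, from 0.05, 0.08 and 0.11. In heat stress minus control it turned the split of calls to 34 higher and 528 lower, from 598 and 476, and the split was 818 and 1047 at a minimum mean of 0.1 FPKM and 333 and 488 when LOC100513953 was also left out. In NMN-supplemented minus heat-stressed the split of 337 and 304 became 182 and 87 after scaling without mitochondrial genes, 218 and 310 after quantile normalization, 504 and 657 at a minimum mean of 0.1 FPKM and 89 and 238 without NMN-supplemented replicate 1. In NMN-supplemented minus control the split of 1208 and 740 became 279 and 510 after scaling without mitochondrial genes and 1544 and 1692 at a minimum mean of 0.1 FPKM. With LOC100513953 also left out of the sum, the medians were 0.02, 0.12 and 0.12, and 821, 520 and 1757 genes were called. The split was then 257 and 263 in NMN-supplemented minus heat-stressed and 1051 and 706 in NMN-supplemented minus control.

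No pairing by replicate number was seen, since deviations from the group means of samples with the same number correlated at -0.032, 0.0080 and -0.014. These values cannot show whether equal numbers mark a shared collection, which no label states. With a replicate block 937, 527 and 1815 genes were called, and after adjustment 0, 0 and 445. Under the block YWHAG was no longer called in NMN-supplemented minus heat-stressed, and at a minimum mean of 0.1 FPKM the adjusted call of SFN in NMN-supplemented minus control was lost. The depth behind each FPKM value is unknown, so the precision of the lowest members, YWHAB and YWHAE, rests on 2 samples a group alone.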
